A study of Mus musculus with 20 samples.

Results

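The genes described here encode 10 acute-phase proteins, that is, secreted proteins whose amounts in blood rise during inflammation or tissue injury. They were taken by symbol as Saa1, Saa2, Saa3, Orm1, Orm2, Lcn2, Hp, Hpx, Apcs and Crp. They are 10 of the 45306 genes in the deposited tables, and all 10 were among the 15616 genes that passed the filter on low counts. The 4 groups were compared to ask how repeated cold exposure and loss of Sirt2, an NAD-dependent deacetylase, act on the mouse liver, alone and together.

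Each group held 5 C57BL/6 mice with 1 liver RNA library each. Control mice were wild type and kept at 24 ± 2 °C. CE mice were wild type and spent 3 h of each day at 4 °C over 3 weeks. Sirt2-/- mice carried the knockout and were not placed in the cold, and Sirt2-/-/CE mice carried the knockout and had the same cold exposure as CE mice. All mice were 5 weeks old when they were divided into groups. The knockout was made by injecting Cas9 ribonucleoprotein aimed at exons 5 to 7 of Sirt2, with no liver-specific promoter, so every cell type of the animal carries it. The number of founder lines is not given in the sources used here. Liver is bulk tissue, so fewer cells of a type and less RNA per cell cannot be told apart in any value below, and the p-values measure the spread between these libraries.

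Libraries held between 35499796 and 53917339 counts. Values per mouse are given as CPM, that is, counts scaled to the same library total. The targeted gene was read first. Sirt2 lay at 41.3 to 44.5 CPM in Control, 40.2 to 56.2 in CE, 16.9 to 27.5 in Sirt2-/- and 18.97 to 27.5 in Sirt2-/-/CE, so no knockout mouse overlapped a wild-type mouse. Its log2 fold change was -0.94 (adjusted p = 0.0145) for Sirt2-/- against Control and -1.11 (adjusted p = 0.0043) for Sirt2-/-/CE against CE by edgeR. A count over the whole gene does not separate the targeted exons from the rest. The 8 hepatocyte markers summed to between 82511 and 173682 CPM over the 20 mice. Control replicate 3 stood apart. It held several acute-phase transcripts, Saa1, Saa2 and Lcn2 above all, at levels no other Control mouse had, but not Saa3 or Crp. The member comparisons with Control are also given without it.

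Acute-phase proteins are made mainly by hepatocytes. Interleukin-6, interleukin-1 and tumour necrosis factor, released by macrophages and other cells, act on hepatocyte receptors and switch these genes on through STAT3, C/EBP and NF-kB factors, and glucocorticoids strengthen the response. In mice the serum amyloid A genes are the most strongly inducible of them, while Crp responds far less than it does in people.

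The stretches just before the start of transcription are where those factors bind. RefSeq promoters on GRCm38.p6 matched 8 of the 10 members, each 300 bases long with 250 before and 50 after the start, and Orm1 and Hp were not matched. They were searched on both strands for CTGGGA (the core of the classical interleukin-6 response element), TTCNNNGAA (a palindromic STAT site), TTGCNNAA (a C/EBP site) and the NF-kB consensus. TTGCNNAA was found in 6 of the 8 members and in 10.8% of all 32851 promoters given. CTGGGA was found in 3 of 8 and 31.8% of all, TTCNNNGAA in 1 of 8 and 8.30% of all, and the NF-kB consensus in 0 of 8 and 8.46% of all. The 250 bases before the start are shown for the members that differed most between mice, with the letters that matched TTGCNNAA in capitals, and for the pentraxin genes, with the letters that matched CTGGGA or TTCNNNGAA in capitals. Each is written 5′ to 3′ on the gene's own strand.
Saa1 (chr7:46742981-46743230, minus strand): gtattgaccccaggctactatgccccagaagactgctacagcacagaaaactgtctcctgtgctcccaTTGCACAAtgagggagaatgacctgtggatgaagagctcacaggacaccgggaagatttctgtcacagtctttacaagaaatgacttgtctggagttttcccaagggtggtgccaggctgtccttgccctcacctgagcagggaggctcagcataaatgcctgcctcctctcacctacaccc
Saa2 (chr7:46751583-46751832, plus strand): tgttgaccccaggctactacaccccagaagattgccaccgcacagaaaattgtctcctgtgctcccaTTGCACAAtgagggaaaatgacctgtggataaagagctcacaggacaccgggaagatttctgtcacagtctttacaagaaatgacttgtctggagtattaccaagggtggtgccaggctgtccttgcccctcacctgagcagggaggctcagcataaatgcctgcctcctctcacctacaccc
Lcn2 (chr2:32387740-32387989, minus strand): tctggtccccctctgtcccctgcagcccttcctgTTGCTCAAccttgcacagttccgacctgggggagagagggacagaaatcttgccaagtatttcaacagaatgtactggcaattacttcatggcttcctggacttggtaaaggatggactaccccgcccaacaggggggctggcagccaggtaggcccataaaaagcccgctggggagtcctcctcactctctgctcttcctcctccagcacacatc
Orm2 (chr4:63362199-63362448, plus strand): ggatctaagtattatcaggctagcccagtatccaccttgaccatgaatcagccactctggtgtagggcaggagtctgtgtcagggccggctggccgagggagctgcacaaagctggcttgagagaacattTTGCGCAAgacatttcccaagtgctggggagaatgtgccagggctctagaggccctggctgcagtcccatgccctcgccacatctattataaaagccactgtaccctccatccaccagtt
Apcs (chr1:172895055-172895304, minus strand): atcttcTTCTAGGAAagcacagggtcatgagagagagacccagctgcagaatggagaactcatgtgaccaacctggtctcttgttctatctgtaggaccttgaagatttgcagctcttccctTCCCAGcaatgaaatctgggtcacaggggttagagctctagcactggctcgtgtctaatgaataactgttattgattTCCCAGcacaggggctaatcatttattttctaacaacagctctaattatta
Crp (chr1:172697806-172698055, plus strand): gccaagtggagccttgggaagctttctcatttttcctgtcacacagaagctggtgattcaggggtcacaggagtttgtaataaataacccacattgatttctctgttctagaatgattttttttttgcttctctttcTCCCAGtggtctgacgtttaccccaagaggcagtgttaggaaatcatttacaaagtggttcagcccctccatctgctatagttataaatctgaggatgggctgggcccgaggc

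The Saa1 and Saa2 stretches were 94.8% identical (238 of 251 aligned columns), and the C/EBP letters stood at the same place in both, at -182 to -175 from the start in Saa1 and at -183 to -176 in Saa2. Saa1 was 53.9% identical to Lcn2, 52.1% to Orm2 and 50.2% to Saa3 over the same length. The other matches of TTGCNNAA lay at -216 to -209 in Lcn2, at -120 to -113 in Orm2, at -200 to -193 in Hpx and, on the opposite strand, at -99 to -92 in Saa3. Apcs held 2 CTGGGA matches before the start and 1 after it, all outside its TTCNNNGAA match, and Crp held 1. The Apcs and Crp stretches were 46.2% identical. A match of letters is a description of the sequence and not a measured binding site.

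The members fall into small families (positions on GRCm38 from the GENCODE vM21 annotation). Saa1 (chr7:46740497-46742980, minus strand) and Saa2 (chr7:46751790-46754313, plus strand) lie head to head with 8809 bases between them, and Saa3 (chr7:46711998-46715700, minus strand) lies beyond Saa4 on the same chromosome. Orm1 (chr4:63344560-63348163) and Orm2 (chr4:63362449-63365878) flank Orm3, all on the plus strand. Apcs (chr1:172893961-172895041, minus strand) and Crp (chr1:172698055-172833031, plus strand) encode pentraxins, ring-shaped pattern-recognition proteins, and lie 60.9 kb apart. The remaining genes stand alone: Lcn2 (chr2:32384633-32388252), Hp (chr8:109575128-109579172) and Hpx (chr7:105591613-105600137), all on the minus strand. Saa1 and Saa2 transcripts are 93.5% identical over 612 aligned bases, and Orm1 and Orm2 transcripts are 91.0% identical over 775. How reads that match more than 1 gene were counted is not given in the sources used here, so the split within each pair is uncertain, while the sum over a pair is less exposed to it.

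Per length, the members covered a wide range. The median over the 20 mice, in FPKM (fragments scaled by transcript length and library depth), was 2237 for Hpx, the haem carrier, and 2030 for Hp, the haemoglobin carrier haptoglobin. It was 694 for Orm1, which encodes orosomucoid (alpha-1-acid glycoprotein), 201 for Crp, which encodes C-reactive protein, and 55.0 for Apcs, which encodes serum amyloid P. It was 49.5 for Saa1 and 16.8 for Saa2, whose products bind high-density lipoprotein, 24.1 for Orm2, 6.13 for Lcn2, the siderophore binder lipocalin 2, and 5.78 for Saa3, the serum amyloid A gene that macrophages and fat also use. Along this order only Orm1 and Crp were neighbours whose ranges over the 20 mice did not overlap. In all 10 members the group with the highest mean CPM was CE. The 10 members together took between 0.505% and 2.17% of a library's counts, with medians of 0.598% in Control, 1.26% in CE, 0.798% in Sirt2-/- and 0.66% in Sirt2-/-/CE.

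**Figure D1:**
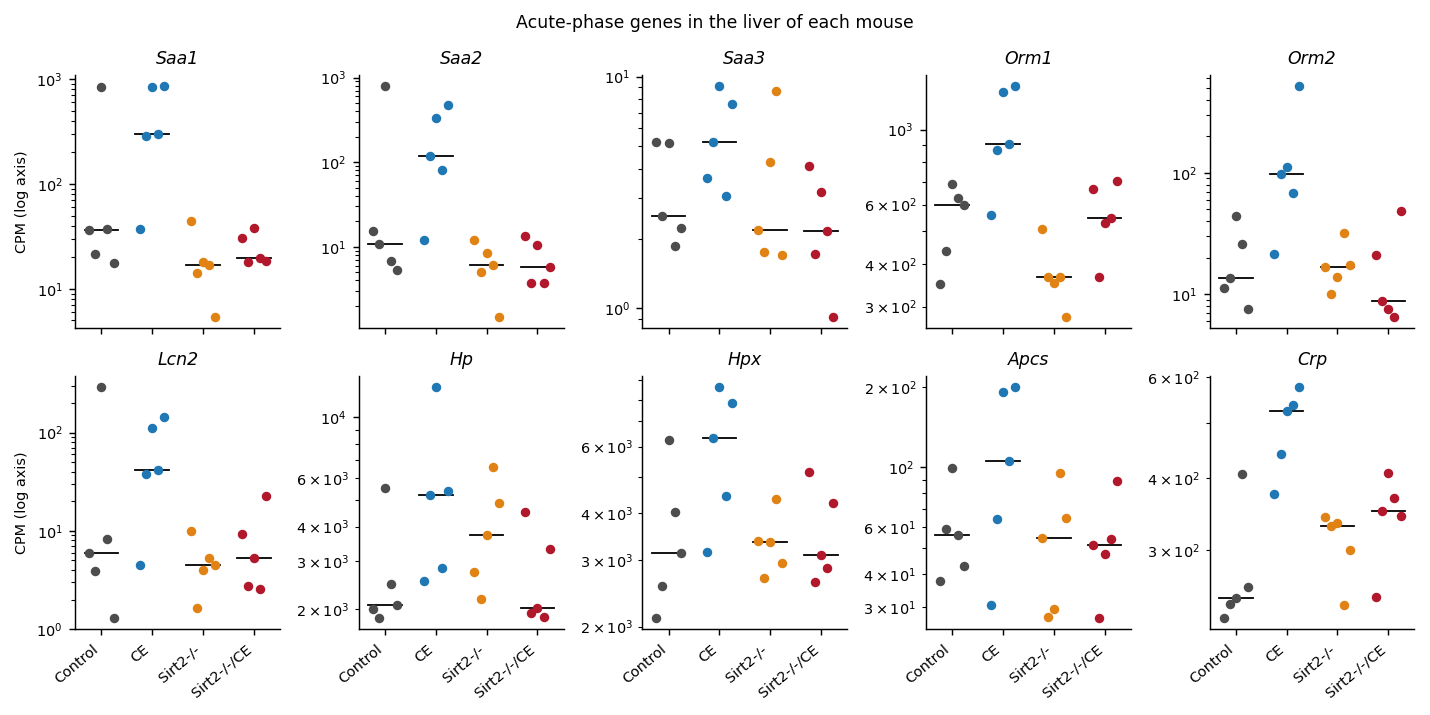
CPM of each of the 10 members (panels, log10 axis) in each of the 20 mice (points), by group, with the group's median (line). In the Saa1 panel, 4 CE mice and Control replicate 3 lie between 288 and 858 CPM and the other 15 mice at 44.7 or below.

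Serum amyloid A transcripts divided the mice most sharply. Saa1 was 36.4, 21.5, 848, 37.3 and 17.5 CPM in Control replicates 1 to 5, and 37.6, 288, 848, 299.98 and 858 CPM in CE replicates 6 to 10. It was 44.7, 14.2, 18.1, 16.7 and 5.40 CPM in Sirt2-/- replicates 11 to 15, and 30.6, 18.1, 38.4, 19.7 and 18.4 CPM in Sirt2-/-/CE replicates 16 to 20. Thus 4 of 5 CE mice and 1 of 5 Control mice were high, and all 10 knockout mice were low, with or without cold. The mean was 192 ± 367 CPM in Control, 466 ± 368 in CE, 19.8 ± 14.7 in Sirt2-/- and 25.0 ± 9.07 in Sirt2-/-/CE (SD, n = 5 each). The gap between the 5 high and the 15 low mice was 6.46-fold, and the levels spanned 159-fold from lowest to highest.

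Saa2 divided them in the same way. It was 15.2, 10.8, 793, 6.86 and 5.31 CPM in Control and 12.1, 117, 337, 81.4 and 472 CPM in CE. It was 12.1, 5.05, 8.45, 6.10 and 1.48 CPM in Sirt2-/- and 13.6, 3.70, 10.4, 3.69 and 5.78 CPM in Sirt2-/-/CE. CE replicate 6 and the 10 knockout mice lay at 13.6 CPM or below, under the highest of the 4 low Control mice, and the 20 levels spanned 535-fold. Summed over both genes, Control replicate 3 held 1640 CPM and the CE mice 49.7 to 1330 CPM. Saa2 made up 48.3% of that sum in Control replicate 3 and 15.5% to 35.5% in the other 19 mice. Saa3 did not share this division. It stayed between 0.918 and 9.11 CPM in every mouse, on 38 to 348 counts, and the ranges of the 4 groups overlapped.

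Lcn2, whose product withholds iron from bacteria, had the same high mice as Saa1. It was 6.02, 3.89, 291, 8.30 and 1.30 CPM in Control and 4.51, 38.2, 111, 41.9 and 143 CPM in CE. It was 9.85, 1.64, 4.02, 5.27 and 4.47 CPM in Sirt2-/- and 9.19, 2.73, 5.25, 2.58 and 22.6 CPM in Sirt2-/-/CE. The highest knockout mouse, Sirt2-/-/CE replicate 20, lay below the 4 high CE mice and above every Control mouse but replicate 3. Lcn2 is also a neutrophil gene. Of the 12 neutrophil markers only S100a9 and Csf3r passed the filter on low counts, Ly6g had 0 counts in all 20 mice, and the summed level of the 12 was 9.47 CPM in Control replicate 3 and 0.923 to 3.33 CPM in the other 19. The part of neutrophils in the Lcn2 level was not tested beyond these values.

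The orosomucoids bind drugs and lipids in plasma. Orm1 was 350, 436, 691, 630 and 599 CPM in Control and 559, 868, 1289, 905 and 1344 CPM in CE. It was 509, 366, 353, 366 and 279 CPM in Sirt2-/- and 669, 368, 531, 549 and 706 CPM in Sirt2-/-/CE. CE replicates 7 to 10 exceeded all 16 other mice, and CE replicate 6 lay within the Control range. Orm2 was 11.2, 13.7, 44.3, 25.9 and 7.59 CPM in Control and 21.5, 96.8, 111, 67.9 and 516 CPM in CE. It was 16.9, 10.1, 13.97, 31.8 and 17.4 CPM in Sirt2-/- and 21.0, 8.74, 7.63, 6.52 and 48.4 CPM in Sirt2-/-/CE. The same 4 CE mice again exceeded all 16 others, but Control replicate 3, high in Saa1, Saa2 and Lcn2, was below all 4 of them in Orm2. CE replicate 10 alone set much of the CE mean of 163 ± 201 CPM (SD, n = 5). There Orm2 made up 27.7% of the summed orosomucoid level.

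The haem and haemoglobin carriers were abundant everywhere and spanned less than Saa1, Saa2, Lcn2 and Orm2. Hp was 2007, 1864, 5546, 2484 and 2080.4 CPM in Control and 2535, 5204, 12847, 2838 and 5393 CPM in CE. It was 2730.2, 2176, 3737, 6586 and 4856 CPM in Sirt2-/- and 4509, 1939, 2030.2, 1881 and 3321 CPM in Sirt2-/-/CE. Here the Sirt2-/- mice were not uniformly low, and all groups overlapped. Hpx lay at 2109 to 6250 CPM in Control, 3155 to 8633 in CE, 2699 to 4359 in Sirt2-/- and 2628 to 5140 in Sirt2-/-/CE, with Control replicate 3 the highest Control mouse for both genes. Highest and lowest mice differed 6.89-fold for Hp and 4.09-fold for Hpx.

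Crp was the steadiest member, with 2.52-fold between its lowest and highest mouse. It was 229, 242, 247, 407 and 259 CPM in Control and 375, 441, 525, 537 and 576 CPM in CE. It was 343, 330.2, 334, 241 and 300.4 CPM in Sirt2-/- and 248, 351, 408, 369.98 and 343 CPM in Sirt2-/-/CE. The mean was 277 ± 73.4 CPM in Control and 491 ± 81.3 in CE (SD, n = 5 each). Only CE replicate 6 lay below the highest Control mouse, replicate 4, and Control replicate 3 was not high. The other pentraxin, Apcs, lay at 37.4 to 99.7 CPM in Control, 30.5 to 200.1 in CE, 27.4 to 95.3 in Sirt2-/- and 27.3 to 88.7 in Sirt2-/-/CE. CE replicates 8, 9 and 10 were the highest 3 of the 20 mice for Apcs, and CE replicate 6 lay below every Control mouse.

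**Figure D2:**
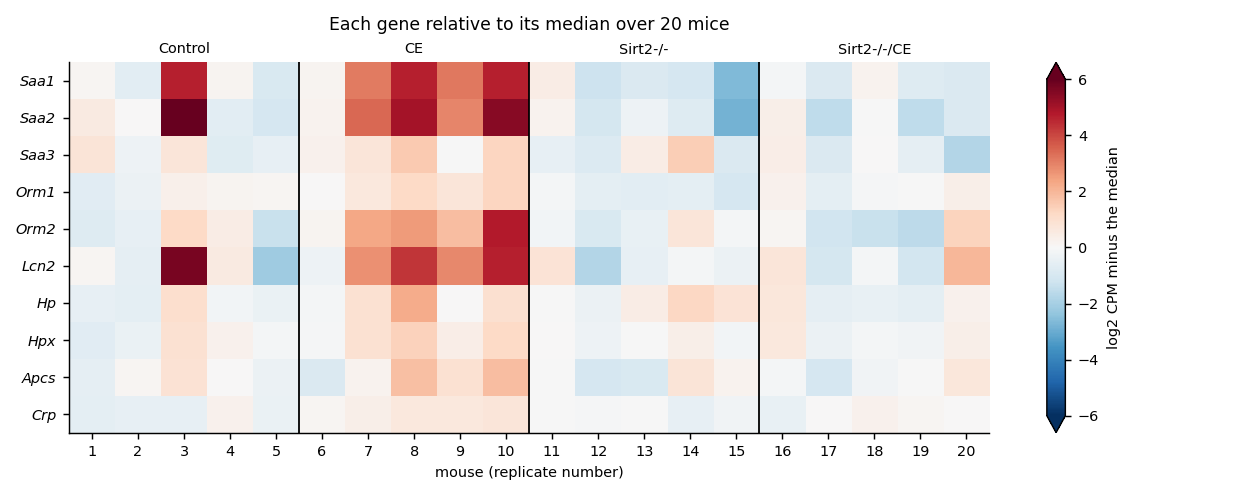
Level of each member (one line each) in each mouse (columns, by group), as log2 CPM minus the member's median over the 20 mice, from low (blue) to high (red). Red marks Saa1, Saa2, Orm2 and Lcn2 of CE replicates 7 to 10 and Saa1, Saa2 and Lcn2 of Control replicate 3, and CE replicate 6 is pale throughout.

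CE was compared with Control to ask what cold exposure does in wild-type liver. All 10 members had a higher fitted level in CE, but 0 of 10 passed an adjusted p of 0.05 by edgeR's quasi-likelihood test with Benjamini-Hochberg adjustment, where 0.0064% of all 15616 genes did. At an unadjusted p of 0.05, 6 of 10 were higher, against 5.5% of all genes, and the median log2 fold change of the members was 0.85 against -0.01 over all genes. The groups overlapped in all 10 members, while 3.04% of all genes did not overlap. These counts describe the members and carry no test of the list. Markers of other cell types were read beside them, and 0 were called. All 8 tested T, B and NK cell markers had a lower fitted level in CE (median -1.12, 1 at an unadjusted p of 0.05), at a summed level of 2.99 to 8.02 CPM in Control, highest in replicate 3, and 1.30 to 4.01 in CE. Of 8 stellate and endothelial markers 7 were lower (median -0.64, 0 at that p), at 105 to 257 CPM in Control and 46.2 to 226 in CE. The same numbers were lower without Control replicate 3, with medians of -0.98 and -0.44 and 0 at that p. A score of circadian clock genes lay between 1.33 and 3.36 in Control and between -4.52 and 2.42 in CE. Their part in the members' levels was not tested beyond these values and the clock covariate.

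Among the members that reached an unadjusted p of 0.05 in CE, Orm2 had a log2 fold change of 2.99 (SE 0.74, adjusted p = 0.171) and Orm1 of 0.88 (SE 0.24, adjusted p = 0.193) by edgeR. Crp had the lowest p of the 10, with a log2 fold change of 0.83 (SE 0.17, unadjusted p = 0.000124 from edgeR, adjusted p = 0.122). The carriers gave 1.04 (SE 0.43, adjusted p = 0.383) for Hp and 0.75 (SE 0.29, adjusted p = 0.358) for Hpx, and Apcs gave 1.01 (SE 0.45, adjusted p = 0.428). Without CE replicate 10 Orm2 was at 1.86 (adjusted p = 0.358), and without CE replicate 8 Hp was at 0.51 (adjusted p = 0.741). Saa1 gave 1.28 with an SE of 0.93 (adjusted p = 0.676). The log2 fold changes of Saa2, Saa3 and Lcn2 lay between 0.13 and 0.75. Genes with the sharpest division of the mice thus had the widest errors. Their values also depended on the scale. By limma on log2 CPM, Saa1 was at 2.48 (unadjusted p = 0.0116, adjusted p = 0.294) and Saa2 at 2.38 (unadjusted p = 0.0426, adjusted p = 0.420). Lcn2 was at 2.11 (unadjusted p = 0.0685, adjusted p = 0.492) in the same fit.

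Control replicate 3 weighed on this comparison. Without it, 9 of 10 members were higher in CE at an unadjusted p of 0.05, against 3.88% of all genes in that fit, and their median log2 fold change was 1.37. The log2 fold change of Saa1 became 4.05 (SE 0.72, adjusted p = 0.147), that of Saa2 4.41 (SE 0.84, adjusted p = 0.178) and that of Lcn2 3.79 (SE 0.87, adjusted p = 0.266) by edgeR. Still 0 of 10 passed the adjusted threshold. Over the 10 fits that left out 1 mouse of these groups, 8 to 10 members were higher and 3 to 9 were so at an unadjusted p of 0.05, with 3 left without Control replicate 1, Control replicate 2 or CE replicate 8.

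**Figure D3:**
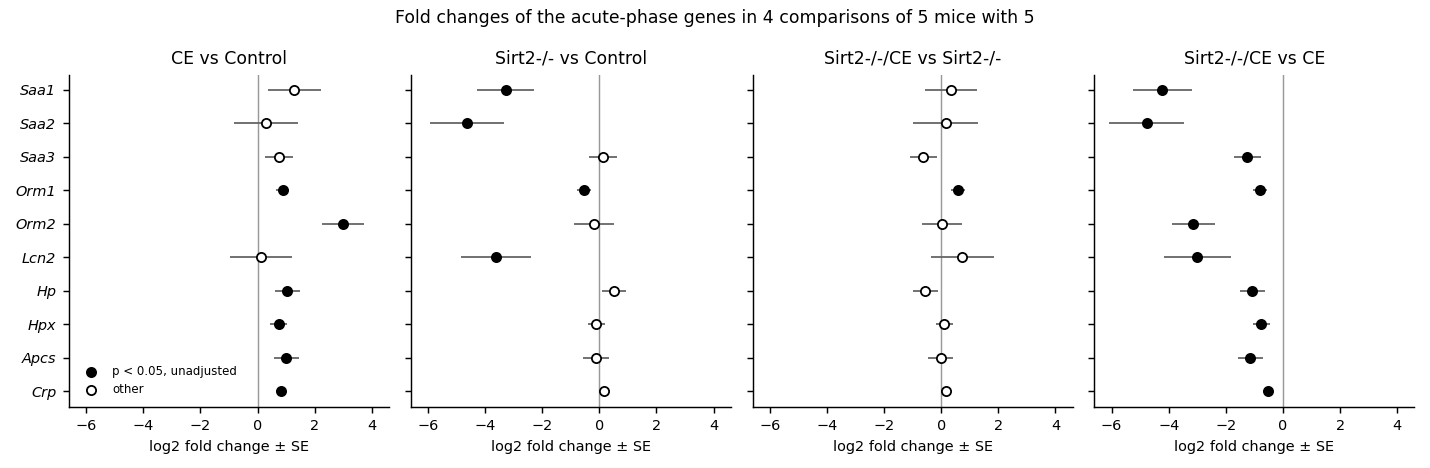
Log2 fold change with its standard error (points and bars) of each member in the 4 comparisons between groups (panels), from edgeR, with filled points where the unadjusted p was under 0.05. All 10 members lie above 0 for CE against Control and below 0 for Sirt2-/-/CE against CE.

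Sirt2-/- was compared with Control to ask what the knockout does without cold. Here 3 members were higher and 7 lower, and 0 of 10 passed the adjusted threshold by edgeR, against 0.89% of all genes. At an unadjusted p of 0.05, 4 of 10 were lower, against 6.78% of all genes. The groups did not overlap in 0 members, against 3.61% of all genes. The log2 fold change was -3.27 for Saa1 (SE 1.00, adjusted p = 0.111), -4.64 for Saa2 (SE 1.30, adjusted p = 0.0815) and -3.62 for Lcn2 (SE 1.22, adjusted p = 0.151) by edgeR. It was -0.53 for Orm1 (SE 0.24, adjusted p = 0.301), and the other 6 members lay between -0.19 and 0.52. By limma on log2 CPM, Saa1 was at -1.74 (unadjusted p = 0.0664), Saa2 at -1.99 (unadjusted p = 0.0856) and Lcn2 at -1.12 (unadjusted p = 0.320). Only Orm1 stayed under an unadjusted p of 0.05 in that fit, at -0.51 (unadjusted p = 0.0475). Among markers of other cell types 0 were called, while 9 of 11 Kupffer cell and macrophage markers were higher (median 0.37), and all 8 T, B and NK cell markers (median -0.55) and all 5 erythroid markers (median -0.37) lower. These counts were 10 higher, 7 lower and 5 lower without Control replicate 3.

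The differences in Saa1, Saa2 and Lcn2 rested on 1 Control mouse. Without Control replicate 3 the log2 fold change was -0.52 for Saa1 (unadjusted p = 0.409 from edgeR), -0.53 for Saa2 (unadjusted p = 0.460) and 0.04 for Lcn2 (unadjusted p = 0.957). Orm1 stayed about as low, at -0.44 (unadjusted p = 0.101), and Hp became the only member at an unadjusted p of 0.05, at 0.93 (unadjusted p = 0.0423). The 4 remaining Control mice and the 5 Sirt2-/- mice thus shared low levels of Saa1, Saa2 and Lcn2. The clock score was 2.17 at its highest and -6.48 at its lowest in Sirt2-/-, against 1.33 to 3.36 in Control, and the part of the hour of sampling was not tested beyond the clock covariate. With that covariate and all mice, the log2 fold change was -2.525 for Saa1, -3.591 for Saa2, -2.886 for Lcn2 and -0.384 for Orm1 by edgeR.

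Cold exposure was then compared within the knockout. Between Sirt2-/-/CE and Sirt2-/-, 7 members were higher and 3 lower, with a median log2 fold change of 0.13 against 0.01 over all genes. By edgeR 0 of 10 passed the adjusted threshold, and 0.0% of all genes did. Orm1 was the 1 member higher at an unadjusted p of 0.05, against 3.96% of all genes, with a log2 fold change of 0.59 (SE 0.24, adjusted p = 0.611). The groups overlapped in all 10 members, against 0.743% of all genes without overlap. The other 9 log2 fold changes lay between -0.62 and 0.74, and for Saa1 the value was 0.33 (SE 0.92) and for Orm2 0.03 (SE 0.69). With such errors a change of several fold in Saa1 or Orm2 could not be told from none. Among markers of other cell types 0 were called. All 8 T, B and NK cell markers were lower (median -0.61). Of 11 Kupffer cell and macrophage markers 9 were higher (median 0.32), as were all 5 erythroid markers (median 0.63), 0 at an unadjusted p of 0.05. The 1 tested pancreas marker was lower at that p, at -2.825. Their part in the members' levels was not tested beyond these values.

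Sirt2-/-/CE was compared with CE to ask what the knockout does under cold, and here the members all leaned in the same direction. All 10 were lower in Sirt2-/-/CE, and all 10 reached an unadjusted p of 0.05, against 2.2% of all genes. None passed the adjusted threshold by edgeR (0 of 10, against 0.0128% of all genes). The median log2 fold change was -1.19 against 0.02 over all genes. The groups overlapped in all 10 members, while 1.22% of all genes did not overlap. CE replicates 7 to 10 lay above every Sirt2-/-/CE mouse in Saa1, Saa2, Orm1, Orm2, Lcn2 and Crp, and CE replicate 6 lay within the Sirt2-/-/CE range in these 6.

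The inducible members differed most. Saa2 had a log2 fold change of -4.78 (SE 1.30, adjusted p = 0.426), Saa1 of -4.22 (SE 1.04, adjusted p = 0.426), Orm2 of -3.14 (SE 0.74, adjusted p = 0.426) and Lcn2 of -3.00 (SE 1.18, adjusted p = 0.678) by edgeR. The unadjusted p was 0.000618 for Saa1 and 0.000414 for Orm2 in the same fit. Saa3 gave -1.24 (SE 0.49), Apcs -1.14 (SE 0.45) and Hp -1.07 (SE 0.43), while Orm1 gave -0.81 (SE 0.24), Hpx -0.76 (SE 0.29) and Crp -0.51 (SE 0.17). Their adjusted p lay between 0.472 and 0.68. Without CE replicate 10 Orm2 was at -2.01 (adjusted p = 0.698), and without CE replicate 8 Hp was at -0.54 (adjusted p = 0.951). The 10 members were lower in each of the 10 fits that left out 1 mouse of these groups, and 6 to 10 of them had an unadjusted p under 0.05, with 6 left without CE replicate 8. These groups do not include Control replicate 3.

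Markers of other cell types were read beside this comparison, and 0 were called by edgeR. Of 11 Kupffer cell and macrophage markers 9 were higher in Sirt2-/-/CE than in CE, 6 of them at an unadjusted p of 0.05, as were 608 of all 15616 genes, and their summed level was 141 to 489 CPM in CE and 334 to 621 CPM in Sirt2-/-/CE. Of 8 stellate and endothelial markers 7 were higher, 5 of them at that p, at 46.2 to 226 CPM in CE and 217 to 290.1 CPM in Sirt2-/-/CE. Of 5 cholangiocyte markers 2 were lower at that p, at 36.2 to 66.5 CPM in CE and 23.5 to 39.6 CPM in Sirt2-/-/CE. Of the 8 hepatocyte markers 5 were higher and 3 lower, none at that p. The 1 tested pancreas marker was lower at that p, at -2.61, and the pancreas markers summed to 0.475 to 9.64 CPM in CE and 0.273 to 0.576 CPM in Sirt2-/-/CE. The clock score varied within both groups, from -4.52 to 2.42 in CE and from -4.69 to 0.87 in Sirt2-/-/CE. With the clock score as a covariate all 10 members stayed lower, from -0.51 for Crp to -4.50 for Saa2, and 0 were called. The part of cell makeup in the members' levels was not tested beyond these values.

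Averaged over cold and no cold, 2 members were lower in the knockout past the threshold. Saa1 fell by 3.75 on the log2 scale (SE 0.72, adjusted p = 0.0353) and Saa2 by 4.71 (SE 0.92, adjusted p = 0.0402) by edgeR, ranks 19 and 20 of all genes by p. Thus 2 of 10 were called, against 0.186% of all genes, and 6 of 10 were lower at an unadjusted p of 0.05, against 5.82%. All 10 had a lower fitted level, with a median log2 fold change of -0.65. The other 4 at that unadjusted p were Lcn2 at -3.31 (SE 0.85, adjusted p = 0.105), Orm2 at -1.66 (SE 0.50, adjusted p = 0.158), Orm1 at -0.67 (SE 0.17, adjusted p = 0.105) and Hpx at -0.43 (SE 0.21, adjusted p = 0.361).

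In the same comparison 0 markers of Kupffer, stellate or endothelial cells were called. Of 11 Kupffer cell and macrophage markers 7 were higher in the knockout at an unadjusted p of 0.05 (median 0.57), as were 5 of 8 stellate and endothelial markers (median 0.58) and 1251 of all 15616 genes. These counts were 6 and 5 without Control replicate 3, and Lyve1 was then called. Their part in the members' levels was not tested beyond these values.

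The Saa1 and Saa2 calls held without Control replicate 3, at a log2 fold change of -2.37 (adjusted p = 0.0337) and -2.65 (adjusted p = 0.0378) by edgeR. Without cold the knockout difference in that fit was only -0.52 for Saa1 and -0.53 for Saa2. The interaction was -3.70 (adjusted p = 0.307) for Saa1 and -4.24 (adjusted p = 0.321) for Saa2 by edgeR. The averaged difference thus came mostly from the cold-exposed groups. In that fit Lcn2 was at -1.47 (adjusted p = 0.275), Orm2 at -1.42 (adjusted p = 0.266) and Orm1 at -0.62 (adjusted p = 0.168), and Hpx missed the unadjusted threshold, at -0.29 (unadjusted p = 0.146 from edgeR). Orm2 was at -1.10 (adjusted p = 0.282) without CE replicate 10. The Saa1 and Saa2 calls were lost when other mice were left out, namely any 1 of CE replicates 7 to 10, Sirt2-/- replicates 12, 14 and 15 or Sirt2-/-/CE replicates 16 to 20, and without Sirt2-/- replicate 11 Saa1 alone was called. They were lost as well in limma on log2 CPM, with -2.69 for Saa1 (adjusted p = 0.0934) and -3.05 for Saa2 (adjusted p = 0.105), and with the clock score as a covariate, with -3.26 (adjusted p = 0.2) and -4.05 (adjusted p = 0.236) by edgeR. All 10 members were lower in each of the 20 fits that left out 1 mouse.

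Averaged over genotypes, cold gave 10 higher members, 0 of 10 past the adjusted threshold (0.0% of all genes) and 3 of 10 higher at an unadjusted p of 0.05 (4.62% of all genes). These were Orm1 at 0.73 (SE 0.17, adjusted p = 0.228), Crp at 0.49 (SE 0.12, adjusted p = 0.228) and Orm2 at 1.51 (SE 0.50, adjusted p = 0.330) by edgeR. The interaction term asked whether cold acted differently in the knockout. It was negative in 9 of 10 members with a median of -0.81, and 0 of 10 passed the adjusted threshold (0.0% of all genes). At an unadjusted p of 0.05, 3 of 10 were negative, against 3.61% of all genes, namely Orm2 at -2.95 (SE 0.99, adjusted p = 0.450), Hp at -1.60 (SE 0.61, adjusted p = 0.490) and Crp at -0.68 (SE 0.25, adjusted p = 0.468) by edgeR. Saa3 at -1.37 and Apcs at -1.02 missed that p, at 0.0568 and 0.119 in the same fit. Without Control replicate 3 the count of negative terms at that p was 8 of 10 (2.99% of all genes in that fit) and the median -1.79, and without CE replicate 8 the count was 2 of 10. The averaged cold effect likewise had 7 of 10 members higher at that p without Control replicate 3 (3.93% of all genes in that fit), with Saa1 at 2.20, Saa2 at 2.29 and Lcn2 at 2.27 (adjusted p = 0.3 to 0.315 by edgeR). Without CE replicate 10, Orm2 was at 0.95 for averaged cold and -1.82 for the interaction, and without CE replicate 8 Hp was at -1.06 for the interaction. No marker of another cell type was called for either term by edgeR (0 in each list). All 8 T, B and NK cell markers were lower for averaged cold (median -0.92, 2 at that p), and 10 of 11 Kupffer cell and macrophage, 8 of 8 T, B and NK cell, 7 of 8 stellate and endothelial and 5 of 5 erythroid markers were positive for the interaction, 0 at that p. The 1 tested pancreas marker was negative for the interaction at that p, at -4.23, on low summed levels of 0.205 to 9.64 CPM. The part of these markers in the members' values was not tested beyond these values.

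Members were next followed from mouse to mouse. Since the mice fell into a high and a low set for Saa1, no correlation between members over all 20 mice is given. Within the low set, after each group's mean was taken away and the single low CE mouse was set aside, 14 mice remained, a choice made after the values were seen. Saa2 followed Saa1 there (r = 0.852, adjusted permutation p = 0.0183, and rho = 0.771, adjusted permutation p = 0.0467, over 9 members), and r was 0.708 without the 2 mice farthest from the median. For the other 8 members r lay between -0.162 and 0.427 with adjusted permutation p between 0.448 and 0.862. The split of reads between Saa1 and Saa2 is uncertain, and its part in this relation was not tested.

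**Figure D4:**
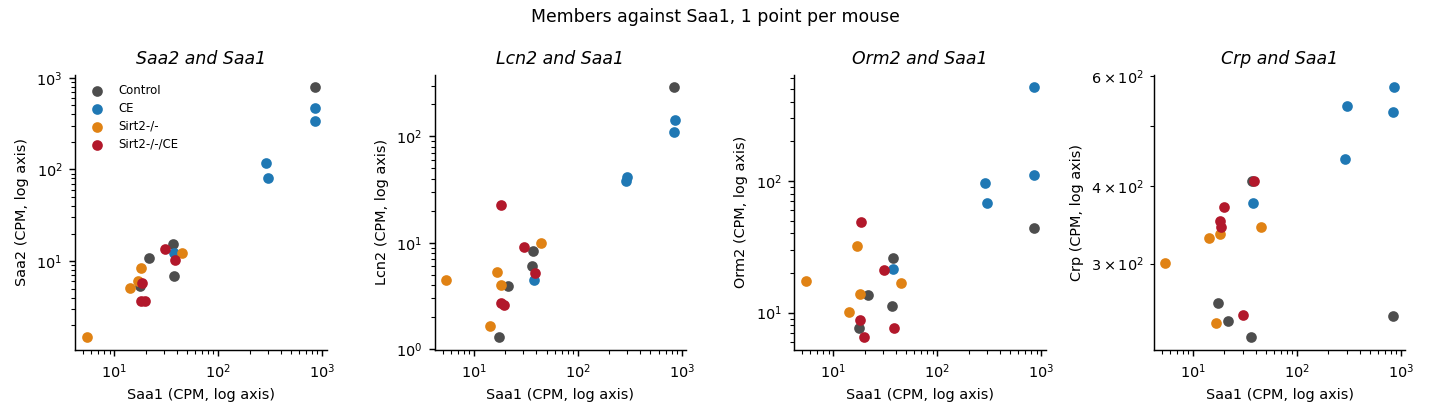
CPM of Saa2, Lcn2, Orm2 and Crp (vertical log axes) against CPM of Saa1 (horizontal log axis), with 1 point per mouse and colour by group. The 5 mice to the right are Control replicate 3 and CE replicates 7 to 10, and Control replicate 3 lies with them for Saa2 and Lcn2 but below them for Orm2 and Crp.

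As a description that pools the high and low mice, genes outside the members were ranked by how closely they followed Saa1 over the 20 group-centred mice, among the 10581 genes averaging 1 FPKM or more. The 10 closest were Serpina3n, Itih4, Plg, Cfi, Lrg1, Slc39a1, Gm6055, Serpina10, Itih1 and Il1rn, with r from 0.802 to 0.891. Within the 14 low mice the same genes had r from 0.165 for Slc39a1 to 0.745 for Plg, so the ranking leans on the high mice. The 10 closest to the mean of the standardized Saa1, Saa2, Orm2 and Lcn2 were Itih4, Lrg1, Serpina3n, Cfi, Tnfrsf1a, Aig1, Itih1, Slc39a1, Plg and Fgg, with r from 0.791 to 0.922. For the 3 of them not in the first ranking, r with Saa1 within the 14 low mice was -0.02 for Tnfrsf1a, 0.02 for Aig1 and 0.213 for Fgg. These values are descriptions, since points share their libraries.

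Other acute-phase genes were read from lists of the textbook response, chosen with earlier results of these data known. Of 30 further positive acute-phase genes 29 were tested. Between CE and Control 15 were higher and 14 lower, with 8 higher and 2 lower at an unadjusted p of 0.05, against 859 higher and 815 lower of all 15616 genes. Lbp, which presents lipopolysaccharide to its receptor, was at a log2 fold change of 1.30 (unadjusted p = 0.000495 from edgeR) and Fgl1 at 1.29, whereas Il1rn, the interleukin-1 receptor antagonist, was at -1.94 (unadjusted p = 0.00242) and Hamp, which encodes the iron hormone hepcidin, at -2.14. Their median was 0.12 and the members' 0.85. Without Control replicate 3, 23 were higher and 6 lower, 17 and 2 of them at that p (3.88% and 3.19% of all genes in that fit), with a median of 0.60, and Il1rn was at -0.86. Between Sirt2-/-/CE and CE 26 of 29 were lower, 14 of them at that p, against 2.2% of all genes, with a median of -0.67 against 0.02 over all genes, as for Fgl1 at -1.60 and C4b at -0.73. Hamp was at 1.31 there, the 1 gene higher at that p. Between Sirt2-/- and Control 24 of 29 were lower and Tifa, an adaptor of NF-kB signalling, was called at -1.95 (adjusted p = 0.0462 by edgeR). That comparison too leaned on Control replicate 3, where Tifa was at 67.1 CPM against at most 20.8 CPM in the other 19 mice. Without it 14 were higher and 15 lower, with a median of -0.02, and Tifa was at -1.17 (adjusted p = 0.148 by edgeR). Of the 10 fits without 1 mouse, the Tifa call held in 2. Averaged over treatments 27 of 29 were lower in the knockout, 15 at that p (5.82% of all genes), and Tifa was the only one called, at -1.61 (adjusted p = 0.0436 by edgeR). Without Control replicate 3 these counts were 25 and 9 (5.19% of all genes in that fit), and 2 genes were called, Steap4 and Tifa, with Tifa at -1.22 (adjusted p = 0.0378 by edgeR), while 12 of the 20 fits without 1 mouse lost its call. Between Sirt2-/-/CE and Sirt2-/- 11 were higher and 18 lower, and only Orm3 reached that p, at 1.79, and at 0.91 without Sirt2-/-/CE replicate 20.

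**Figure D5:**
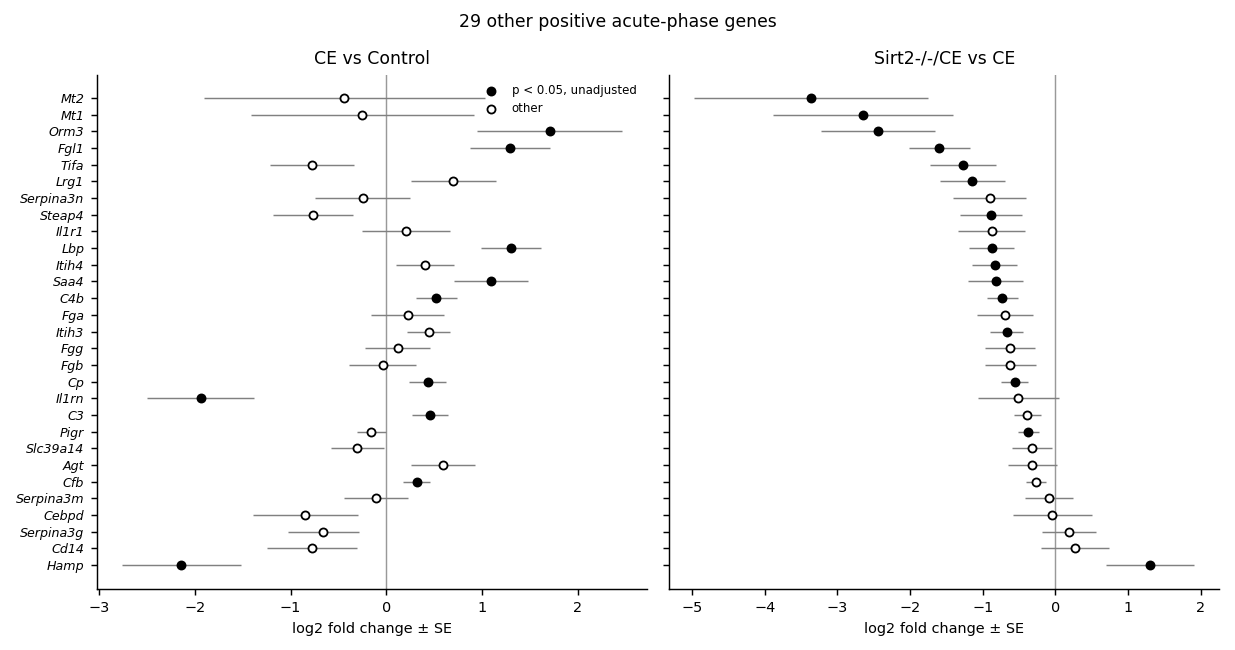
Log2 fold change with its standard error (points and bars, horizontal axis) of the 29 tested positive acute-phase genes outside the members, for CE against Control (left) and Sirt2-/-/CE against CE (right), from edgeR, with filled points where the unadjusted p was under 0.05. For Sirt2-/-/CE against CE 26 of the 29 lie below 0.

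Genes whose plasma proteins decline in the acute phase were read as well. Of 12 such genes 0 were called in any of the 7 comparisons by edgeR. Between Sirt2-/-/CE and CE 6 were higher and 6 lower, 0 at an unadjusted p of 0.05, with a median of -0.02. The interaction term was positive in 8 of 12, 2 at that p, against 739 of all 15616 genes, with a median of 0.12. Without Control replicate 3 it was positive in 8, 0 at that p. Between Sirt2-/- and Control 3 were lower at that p, against 6.78% of all genes, among them Apoa1 at -0.66 and Serpina6, the corticosteroid carrier, at -1.18. Without Control replicate 3 these were at -0.60 and -0.94, and 1 of the 12 was lower at that p (5.48% of all genes in that fit).

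The signals that drive these genes were read in the same tables. Of 34 genes of interleukin-6, interleukin-1 and tumour necrosis factor signalling 29 were tested and 0 were called in any of the 7 comparisons by edgeR. Between CE and Control, Il1b was at -2.82 (unadjusted p = 0.000313, adjusted p = 0.157 from edgeR) and Il1a at -1.42 (adjusted p = 0.193). They were at -2.25 and -1.13 without Control replicate 3, and both were called without Control replicate 4, at -3.12 (adjusted p = 0.0133) and -1.66 (adjusted p = 0.0278) by edgeR. Il1b lay between 0.392 and 10.8 CPM in Control and between 0.509 and 0.858 CPM in CE. Between Sirt2-/-/CE and CE, Nfkbiz, a cofactor of NF-kB, was at -0.86 (unadjusted p = 0.0207 from edgeR) and Il1a at 0.93 (unadjusted p = 0.0274). Averaged over treatments, Stat3 was at -0.61 (unadjusted p = 0.017 from edgeR) and Il1r1, the interleukin-1 receptor, at -0.75 in the knockout, and at -0.33 and -0.35 without Control replicate 3, both then above an unadjusted p of 0.05. Il6 itself was at 0 to 0.263 CPM in every mouse. Of 12 glucocorticoid genes 11 were tested and 0 called, and between Sirt2-/-/CE and CE the kinase gene Sgk1 was at 1.04 (unadjusted p = 0.00298 from edgeR) and the metallothioneins Mt1 and Mt2, which are also on the list of positive acute-phase genes, at -2.65 (adjusted p = 0.799) and -3.36 (adjusted p = 0.816). Without CE replicate 8 these were -1.05 and -1.23, and Nfkbiz was at -0.55.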

How the data were processed

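Liver RNA of 20 mice was captured with oligo(dT), sequenced on an Illumina NovaSeq and mapped to mm10, per the labels and the submitters' processing notes. The aligner, the counting tool and the handling of strand and of reads matching several genes are not given in the sources used here. The authors deposited raw counts per gene and FPKM values per mouse. The 9 lines that name no gene were left out. Counts were scaled by TMM and tested with edgeR's quasi-likelihood test (edgeR 4.0.16, R 4.3.3) over all 20 libraries, with 1 mean per group, 7 comparisons and Benjamini-Hochberg adjustment over 15616 genes that passed a filter (at least 10 counts in a group's worth of libraries and 15 in all). The threshold was an adjusted p of 0.05. CPM values use the TMM library sizes, and log2 CPM a prior count of 2. The fitting code was run on simulated counts with the same spread for every gene and no outlying mouse. That run does not cover genes as uneven as Saa1, Saa2 and Lcn2. Alternatives used limma 3.58.1, DESeq2 1.42.0, other filters and scalings, a clock score and the loss of each mouse. Correlations used 100000 permutations within groups (SciPy 1.17.1). Transcripts were aligned with BLAST+ 2.17.0. The deposited FPKM served to compare levels between genes, to set the floor of 1 FPKM for the ranking of similar genes, and in alternatives of the correlation with Saa1.

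All 10 members are named. A fold change is given where p was under 0.05 or its log2 size at least 1, and as a range otherwise. Of other lists, called genes or the genes of lowest p are named. The members and lists were chosen with earlier results of these data known, so no count over them is independent evidence.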

Additional observations from a re-analysis of the deposited data

Results flagged for a closer look

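The highest or lowest mouse of each group was compared with its neighbours for each member (Dixon's ratio of the gap to the range on log2 CPM, critical value 0.71 for 5 mice), and 4 of 40 tests passed it, where chance gives about 1 in 20. In 3 of them Control replicate 3 stood above the other Control mice, at 847.6 CPM for Saa1, 792.5 CPM for Saa2 and 5546 CPM for Hp. In the other, Control replicate 4 stood above them at 406.6 CPM for Crp, in which Control replicate 3 was not high. Lcn2, at 291 CPM in Control replicate 3, is described with these in the report.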

How the results depend on the processing

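Over 36 member fold changes and all alternatives, 758 of 810 values kept their direction and their side of the threshold, 20 passed it newly, 31 lost it and 1 reversed, namely Lcn2 for Sirt2-/- against Control, at 0.04 without Control replicate 3 (-4.01 to 0.0418 over the mice left out). Only 2 results were called in the main fit, Saa1 and Saa2 for averaged genotype. For the others, keeping their side meant staying uncalled. All 31 losses were of these 2 calls. Saa1 lost its call in 15 alternatives and kept it in 13, and Saa2 lost it in 16 and kept it in 12. Members called changed with the tool. DESeq2 called 3 for CE against Control (Orm1, Orm2, Crp), 3 for Sirt2-/- against Control (Saa1, Saa2, Lcn2), 3 for Sirt2-/-/CE against CE (Saa1, Saa2, Orm2), 2 for averaged cold (Orm1, Crp) and 4 for averaged genotype (Saa1, Saa2, Orm1, Lcn2). Limma with voom called 4 for CE against Control (Orm1, Orm2, Hpx, Crp), 1 for averaged cold (Crp) and 0 for averaged genotype, as did limma on log2 CPM and the clock covariate for averaged genotype. The share of all genes called by DESeq2 or by limma with voom is not given here. These counts therefore cannot be read as particular to the members. With 1 mouse left out, averaged genotype gave 0 to 2, averaged cold 0 to 1 and CE against Control 0 to 1 (Crp, without Control replicate 4). The planned count of members correlated with Saa1 over all 20 mice, which pools the high and low mice and is not used as a result, was 8 of 9 and ranged from 3 to 8, with 3 without CE replicate 6 and 4 without Control replicate 3. No paired analysis was possible because the groups share no replicate numbers. Depth was lowest for Saa3, on 38 to 348 counts per mouse. The cause of these changes was not tested.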

Other observations

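Control replicate 3 was examined beyond the members after its values had been seen, so these counts are a description. It was the highest of the 20 mice for 2 of the 10 members (Saa2 and Lcn2), for 17 of the 29 tested further positive acute-phase genes and for 13 of the 29 tested cytokine signalling genes, against 9.28% of all 15616 genes. The metalloreductase gene Steap4 was at 849 CPM there and at 55.9 to 183 CPM in the other 19 mice. Socs3, a feedback inhibitor induced by interleukin-6, was at 48.5 CPM against 3.36 to 23.6, and Stat3 at 274 CPM against 44.7 to 165. Il1b was at 10.8 CPM against 0.392 to 6.66, and Il1rn at 16.1 CPM against 0.513 to 3.24. The metallothionein gene Mt1 was at 1075 CPM against 3.86 to 705.

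Against Control replicate 3 the CE mice lay lower in some of these genes and close or higher in others. In CE, Socs3 lay at 5.54 to 18.6 CPM and Il1b at 0.509 to 0.858 CPM. Lrg1 reached 1361 CPM in the highest CE mouse against 1079 CPM in Control replicate 3, and Itih4 reached 3341 against 3754 CPM. Orm2 lay at 67.9 to 516 CPM in CE replicates 7 to 10 and at 44.3 CPM in Control replicate 3. What set Control replicate 3 apart was not tested.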
